A study of Mus musculus with 6 samples.

Results

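The 10 genes described here encode the enzymes and opsins with which the retinal pigment epithelium (RPE) recycles visual pigment, and the proteins that bring retinol in and hold it. They were chosen by gene symbol (Rpe65, Lrat, Rdh5, Rdh10, Rdh11, Rlbp1, Stra6, Ttr, Rgr and Rrh), and all 10 were found among the 28043 genes of the tables. RNA came from primary mouse RPE cells of mice with proliferative vitreoretinopathy (PVR) and of normal mice, with 3 libraries labelled PVR and 3 labelled Normal. PVR is a scarring disorder of the injured eye, here of the traumatic kind by the series title. The sources used here give no strain, age, sex, way of inducing PVR, time after it or number of animals per library. Whether the replicates of a group came from different animals is also unknown, and a p-value here reflects no more than the variation among these 6 libraries, part or all of which could be technical.

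In the visual cycle, light turns the 11-cis-retinal of the photoreceptor opsins into its all-trans form, which returns to the RPE as all-trans-retinol. There it is esterified, isomerised to 11-cis-retinol, oxidised to 11-cis-retinal and handed back, while retinol from the blood enters through a receptor on the basal side. A pair of opsins made in the RPE, Rgr and Rrh, bind retinal themselves, and Rgr takes part in a light-driven route to 11-cis-retinal.

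All 9 genes of the enzymes, the binding protein, the receptor and the opsins were lower in PVR, whereas Ttr, the carrier, was not. The falls were not all equal, but each of the other genes was tested only against Rpe65. The fall was deepest for the isomerase gene Rpe65, to 36.3% of the Normal level, and mildest for the dehydrogenase gene Rdh11, to 69.5%. Of the 15766 genes tested, 12.9% were called lower and 17.9% higher (30.8% in either direction; limma, Benjamini-Hochberg adjusted p under 0.05), against 9 and 0 of these 10 genes. All 10 passed the filter on low counts. Calls of lower genes were more frequent among abundant genes: 21.5% of the 3407 genes with a mean of at least 1000 normalised counts, which include all 10, and 33.0% of the 176 genes with at least 10000, which include 8 of them. The median log2 change was -0.91 over the 10 genes and -0.02 over all genes tested.

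Promoter sequences are shown for 3 of the genes that fell together: Rpe65, which fell the most, Rgr, which held the most reads of those that fell, and Rlbp1. Of the 8 genes searched, these 3 are the only ones with a match to TAATCC or CATGTG, the motifs marked here. Each sequence is the 250 bases before the annotated start on GRCm38.p6 (RefSeq), 5′ to 3′ on the gene's strand. Capitals mark matches to the core TAATCC, bound by the homeodomain proteins OTX2 and CRX and read from the opposite strand as GGATTA. They also mark the E-box CATGTG, a form bound by the pigment cell factor MITF and read from the opposite strand as CACATG.
Rpe65, chr3:159598931-159599180, plus strand: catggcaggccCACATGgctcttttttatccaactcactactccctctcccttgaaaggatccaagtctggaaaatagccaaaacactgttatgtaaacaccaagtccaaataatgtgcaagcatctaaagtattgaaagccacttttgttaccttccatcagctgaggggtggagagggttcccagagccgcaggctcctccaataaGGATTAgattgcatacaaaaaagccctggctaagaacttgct
Rgr, chr14:37049015-37049264, minus strand: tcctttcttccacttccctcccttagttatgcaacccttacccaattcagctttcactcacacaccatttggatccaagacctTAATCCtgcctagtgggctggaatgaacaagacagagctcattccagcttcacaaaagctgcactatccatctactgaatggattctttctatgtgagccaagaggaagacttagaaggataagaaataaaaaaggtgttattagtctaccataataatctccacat
Rlbp1, chr7:79387028-79387277, minus strand: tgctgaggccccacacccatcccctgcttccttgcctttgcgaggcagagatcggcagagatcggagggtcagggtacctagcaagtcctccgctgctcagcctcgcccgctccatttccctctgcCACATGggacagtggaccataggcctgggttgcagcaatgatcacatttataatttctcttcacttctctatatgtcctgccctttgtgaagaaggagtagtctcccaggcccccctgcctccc

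The OTX2 and CRX core began at position -42 from the start in Rpe65 and at -167 in Rgr. Of the 12 promoters of the 8 genes searched, these 2 held it, as did 6.25% of all 32851 promoters of the same length. The E-box CATGTG lay at -239 in Rpe65 and -124 in Rlbp1, 2 of the 12 promoters, and 12.3% of all promoters held it. The E-box CACGTG was found in 1 of the 12 promoters, that of Rdh11 upstream of the more downstream of its 2 starts (6.02% of all promoters). The SOX core AACAAT, which reads from the opposite strand as ATTGTT, was found in 0 of 12 (9.42% of all promoters). All 4 motifs were searched on both strands, and no matches overlapped. A match is a run of letters, not a shown binding site.

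Normalised read counts (reads divided by 1 size factor per library) are given below for each library, in the order of replicates 1, 2 and 3. Depth was 15269983 to 19173187 reads per library, and the least covered of the 10 genes, Rdh11, still had 1414 to 2978 reads. Log2 changes are differences of group means of log2(normalised count + 1), PVR less Normal.

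The esterification and isomerisation steps come first. Rpe65 (chromosome 3, 159599175 to 159625321) encodes the isomerohydrolase that makes 11-cis-retinol from retinyl esters. It had 28403, 28578 and 38343 normalised counts in PVR, against 88531, 82848 and 89000.0 in Normal. The groups lay far apart, and PVR replicate 3 stood above the other PVR libraries. The log2 change was -1.46 (SE 0.14, limma adjusted p = 0.00012), which is 2.76-fold lower in PVR. Of all tested genes, 279 (1.77%) had a lower log2 change than Rpe65. Lrat (chromosome 3, 82892579 to 82903973), the acyltransferase that makes the retinyl esters Rpe65 uses, had 23639, 26465 and 27962 in PVR and 43767, 45834 and 56029 in Normal. Its groups did not overlap, and the log2 change was -0.89 (SE 0.13, limma adjusted p = 0.00088). Of all genes tested, 48.0% had groups that did not overlap, 23.3% with PVR below Normal, as 9 of these 10 had.

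All 3 retinol dehydrogenase genes fell. Rdh5 (chromosome 10, 128913593 to 128922888) encodes the main 11-cis-retinol dehydrogenase of the RPE, which completes the cycle. It had 27251, 32267 and 36804 normalised counts in PVR, against 55908, 53735 and 59655 in Normal (log2 change -0.82, SE 0.13, limma adjusted p = 0.00144). Rdh5 shares 720 of its 2809 annotated exon bases with Bloc1s1 on the same strand, and the effect of reads from these bases was not tested. Bloc1s1 had 30.9 to 49.1 normalised counts in PVR and 36.3 to 60.8 in Normal. Rdh10 (chromosome 1, 16105774 to 16133734), an all-trans-retinol dehydrogenase that also works with the Rgr opsin, had 35563, 26873 and 34838 in PVR and 61353, 63170 and 65008 in Normal. Here PVR replicate 2 was lowest, and the log2 change was -0.97 (SE 0.13, limma adjusted p = 0.000637). Rdh11 (chromosome 12, 79174337 to 79192293), a dehydrogenase that accepts cis and trans retinols, had 1922, 1610 and 2185 in PVR and 2806, 2661 and 2699 in Normal. Its groups were apart but closer than those of the other dehydrogenases (log2 change -0.52, SE 0.12, limma adjusted p = 0.00961). The ratio of Rdh10 to Rdh5 reads was 1.31, 0.833 and 0.947 in PVR and 1.10, 1.18 and 1.09 in Normal, so the PVR libraries spread to both sides of the Normal ones. The ratio of Rdh11 to Rdh5 reads was 0.0705, 0.0499 and 0.0594 in PVR and 0.0502, 0.0495 and 0.0452 in Normal, and these ranges overlapped.

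**Figure D1:**
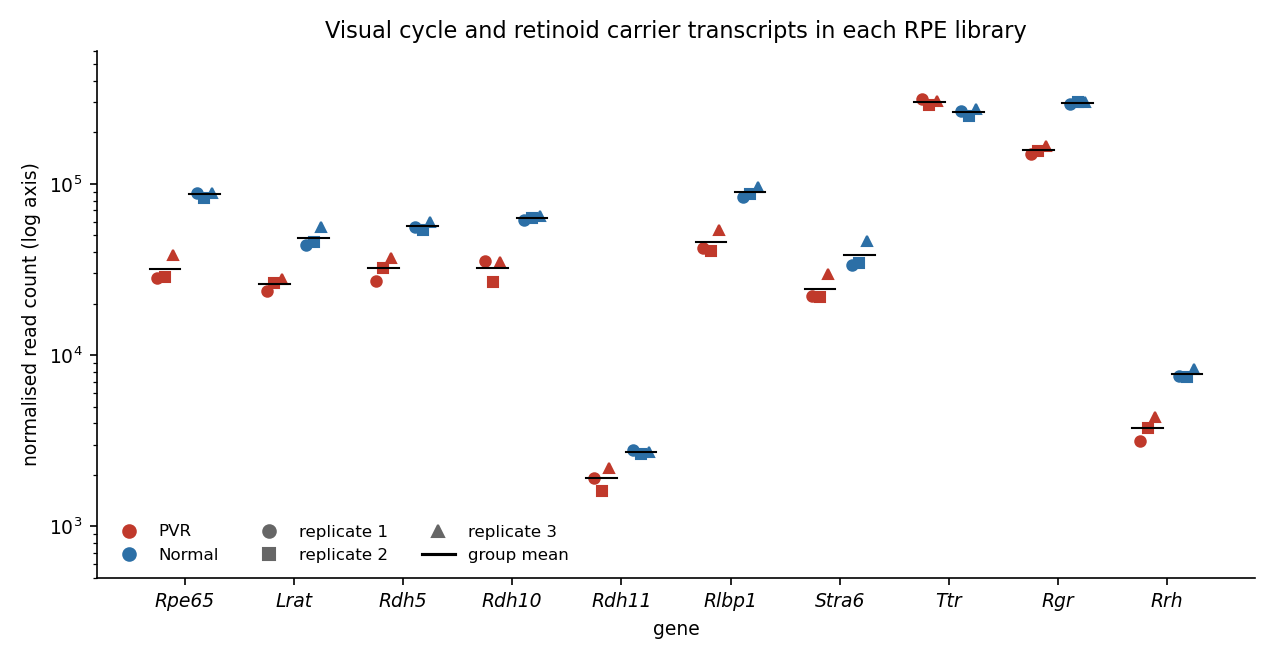
Normalised read count (log axis) of each gene in each library, PVR left of Normal. Symbols mark the replicate number and black lines the mean of 3 libraries. The PVR points lie below all Normal points for 9 genes, and above them for Ttr (290275 to 313067 in PVR, 247884 to 275614 in Normal).

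Among the proteins that bind and move retinoids, the intracellular binding protein and the retinol receptor fell. Rlbp1 (chromosome 7, 79374870 to 79387048) encodes CRALBP, which holds 11-cis-retinoids in the RPE and in Müller glia. It had 42215, 40808 and 53767 normalised counts in PVR, against 83947, 87454 and 96396 in Normal, with no overlap. The log2 change was -0.98 (SE 0.14, limma adjusted p = 0.000711). Stra6 (chromosome 9, 58063788 to 58153996), the membrane receptor that takes retinol from its plasma binding protein, had 22081, 21763 and 29627 in PVR and 33539, 34721 and 46462 in Normal. In each group replicate 3 was well above the others, and the gap between PVR replicate 3 and Normal replicate 1 was small. Its log2 change was -0.64 (SE 0.17, limma adjusted p = 0.0162), and it did not pass once Normal replicate 3 (limma adjusted p = 0.0522), PVR replicate 1 (0.0620) or PVR replicate 2 (0.0621) was left out.

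Ttr (chromosome 18, 20665280 to 20674321) encodes transthyretin, which the RPE secretes and which carries thyroid hormone and, bound to the plasma retinol-binding protein, retinol. It had 313067, 290275 and 304280 normalised counts in PVR, against 265470, 247884 and 275614 in Normal. Every PVR library lay above every Normal library, as in 24.7% of all genes tested, yet the difference did not pass the test. The log2 change was 0.20 (95% interval -0.06 to 0.46, limma adjusted p = 0.215; edgeR 0.226, DESeq2 0.129). This interval leaves room for no change and for a rise of at most 0.46 on the log2 scale, and lies above that of each of the other 9 genes.

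Both opsin genes of the RPE fell. Rgr (chromosome 14, 37034909 to 37048964) had 148668, 156705 and 166677 normalised counts in PVR, against 293504, 300456 and 302029 in Normal. The spread within each group was small beside the gap between them, and the log2 change was -0.93 (SE 0.11, limma adjusted p = 0.000383). Rrh (chromosome 3, 129804408 to 129822587), which encodes peropsin, had 3129, 3738 and 4335 in PVR and 7576, 7420 and 8301 in Normal (log2 change -1.07, SE 0.13, limma adjusted p = 0.000381). The ratio of Rgr to Rrh reads was 47.5, 41.9 and 38.4 in PVR and 38.7, 40.5 and 36.4 in Normal, and these ranges overlapped. Of 4 other opsin genes that could be tested, 0 passed.

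**Figure D2:**
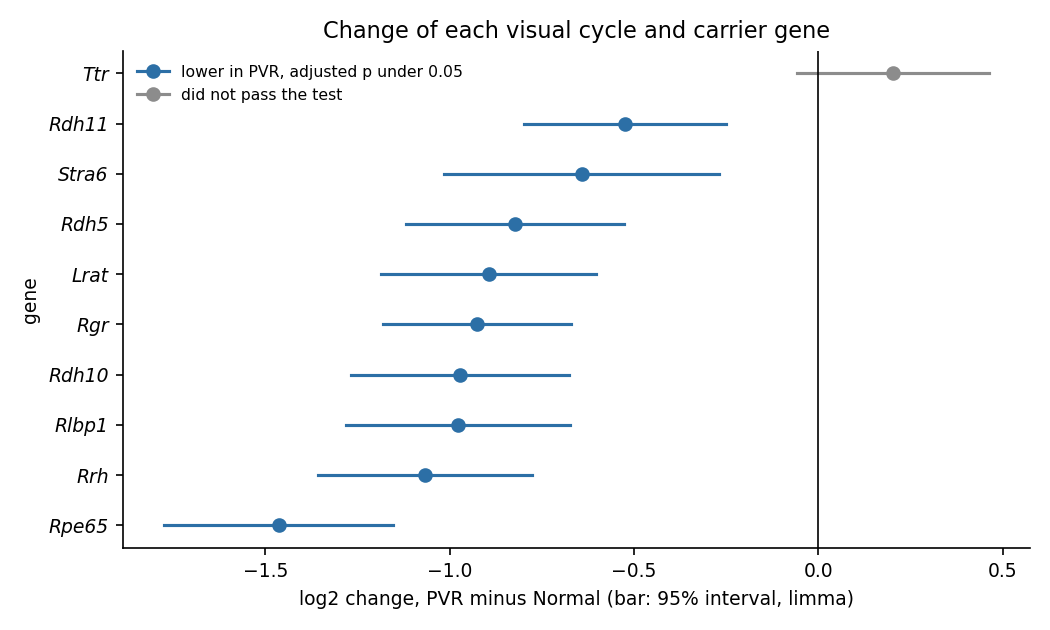
Log2 change (PVR minus Normal) of each of the 10 genes with its 95% interval from limma. The 9 intervals of the lower genes lie wholly below 0, from -1.46 for Rpe65 to -0.52 for Rdh11, and that of Ttr (0.20) includes 0.

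Taken as a share of all reads, the 10 genes held 3.58%, 3.62% and 4.16% of the reads in PVR libraries and 5.70%, 5.86% and 5.76% in Normal libraries. The groups did not overlap (3.79 ± 0.33% in PVR, 5.77 ± 0.08% in Normal, SD, n = 3 each; exact two-sided permutation p = 0.1, the smallest that 3 against 3 allows). Without Ttr, the share of the other 9 genes was 2.05 ± 0.27% in PVR and 4.18 ± 0.10% in Normal. Rgr alone held 0.906 ± 0.084% in PVR and 1.81 ± 0.083% in Normal, and Ttr 1.74 ± 0.072% in PVR and 1.59 ± 0.025% in Normal. Ttr reads were 2.11, 1.85 and 1.83 times those of Rgr in the PVR libraries, but 0.904, 0.825 and 0.913 times in the Normal libraries. The order of these 2 read counts was thus turned round in all 3 PVR libraries.

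**Figure D3:**
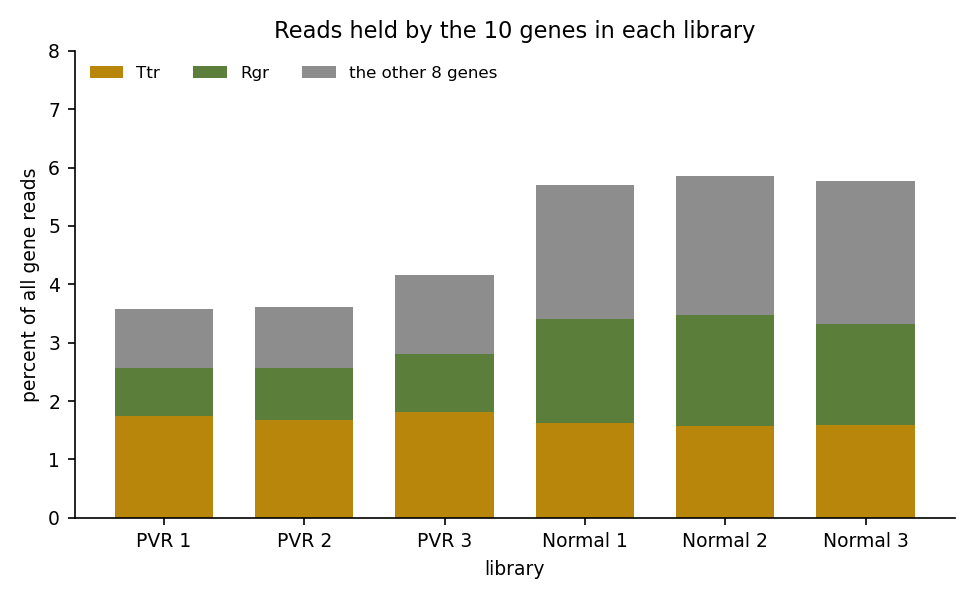
Percent of all gene reads held by Ttr, by Rgr and by the other 8 genes in each library, stacked. The PVR bars reach 3.58% to 4.16% and the Normal bars 5.70% to 5.86%, while the Ttr segment is 1.67% to 1.81% in PVR and 1.57% to 1.62% in Normal.

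Levels of different genes were compared per kilobase of merged annotated exons. In PVR, Ttr stood first (255093 ± 9692 normalised counts per kb, SD, n = 3), ahead of Rgr (32877 ± 1885), Rpe65 (16430 ± 2942), Rlbp1 (15436 ± 2407) and Rdh5 (11430 ± 1701). Rdh10, Lrat, Stra6, Rrh and Rdh11 followed, the last at 552 ± 83.3. The mean levels had the same order in Normal, where Ttr had 221745 ± 11830, Rgr 62404 ± 948, Rpe65 44877 ± 1771, Rlbp1 30219 ± 2173, Rdh5 20090 ± 1066 and Rdh11 788 ± 21.9 normalised counts per kb. In Normal no pair of neighbours in this order overlapped between libraries. In PVR the ranges of Rpe65 and Rlbp1, of Lrat and Stra6 and of Rrh and Rdh11 overlapped, although within each PVR library Rpe65 stood above Rlbp1 and Lrat above Stra6. The order depends on the length taken. Per kb of the longest coding transcript, Rdh5 (25523 in PVR, 44859 in Normal) stood ahead of Rlbp1 and Rpe65 in PVR, its range overlapping that of Rlbp1. In Normal Rdh5 stood behind Rpe65, with overlapping ranges. By this length Rlbp1 (21287) stood above Rpe65 (17056) in PVR, again with overlap. Stra6 stood above Lrat in PVR (7959 against 4863) and in Normal (12428 against 9072), with no overlap in either group.

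Whether the genes fell by the same factor was tested on the ratio of each gene to Rpe65 in the same library, which does not depend on the scaling between libraries. All 9 other genes were higher in PVR relative to Rpe65, as were 89.0% of all genes, so this count says little about the 9 genes beyond the depth of the fall in Rpe65, and 0.412% of all genes were lower. The mildest contrast was with Rrh (ratio 0.110, 0.131 and 0.113 in PVR, 0.0856, 0.0896 and 0.0933 in Normal; log2 difference 0.40, SE 0.17, limma adjusted p = 0.0377). Rlbp1 came next, with 1.49, 1.43 and 1.40 reads per Rpe65 read in PVR and 0.948, 1.06 and 1.08 in Normal (log2 difference 0.49, SE 0.16, limma adjusted p = 0.00949). These 2 contrasts were lost with the replicate number as a block (limma adjusted p = 0.0839 for Rrh and 0.0536 for Rlbp1), and that of Rrh also without Normal replicate 1 (0.129), 2 (0.128) or 3 (0.0959) or PVR replicate 2 (0.143). Rlbp1 lost its contrast without Normal replicate 1 (0.0547), and Rdh10 (log2 difference 0.49) lost it without Normal replicate 1 (0.0541) or 3 (0.0502) or PVR replicate 1 (0.0741).

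The contrasts of Lrat (log2 difference 0.57), Rgr (0.54), Rdh5 (0.64), Stra6 (0.82), Rdh11 (0.94) and Ttr (1.67) with Rpe65 held without each library in turn. Lrat, whose enzyme makes the substrate of the Rpe65 isomerase, had 0.832, 0.926 and 0.729 reads per Rpe65 read in PVR, against 0.494, 0.553 and 0.630 in Normal. Stra6 had 0.777, 0.762 and 0.773 reads per Rpe65 read in PVR, a narrow range, against 0.379, 0.419 and 0.522 in Normal. Ttr had 11.02, 10.16 and 7.936 in PVR and 2.999, 2.992 and 3.097 in Normal, the widest separation of the 9.

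**Figure D4:**
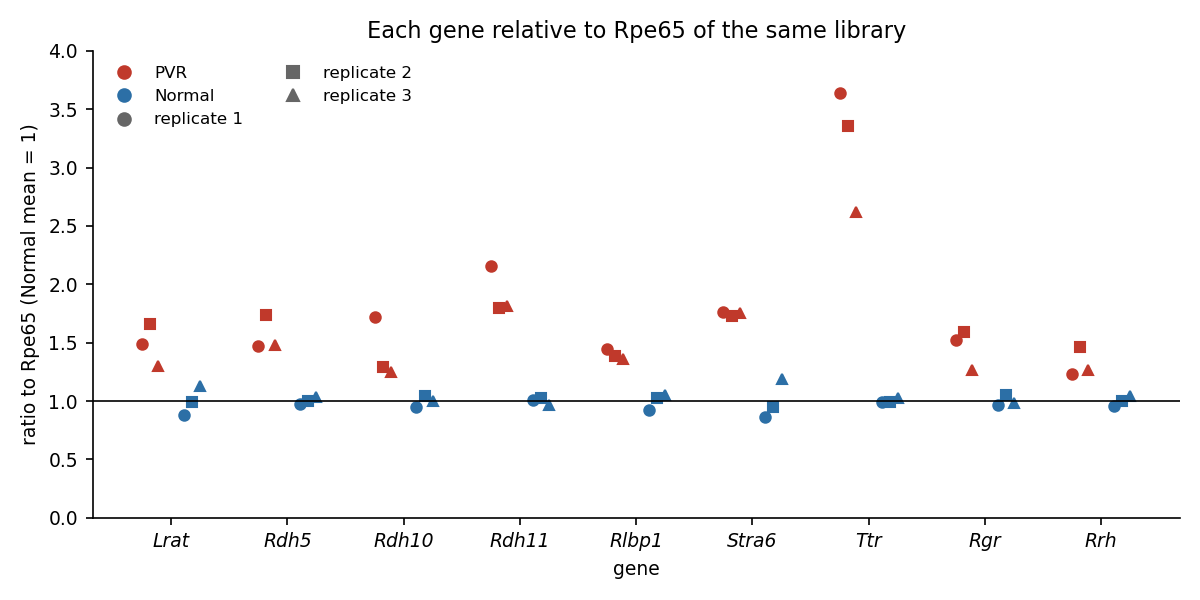
Ratio of each gene's reads to Rpe65 reads in the same library, divided by the mean ratio of the 3 Normal libraries. Every PVR point lies above every Normal point for all 9 genes, and the PVR points of Ttr lie highest.

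PVR replicate 3 was the highest PVR library for 8 of the 10 genes, and Normal replicate 3 the highest Normal library for 9. In both groups the sample record of replicate 3 is numbered apart from those of replicates 1 and 2. Whether replicate 3 was prepared or sequenced as a separate batch is not stated. The coefficient of variation between libraries ran from 3.80% (Ttr) to 18.2% (Stra6) in PVR and from 1.52% (Rgr) to 18.7% (Stra6) in Normal. The libraries also differed in markers of other cells. The summed level of 23 macrophage markers was 82161, 108043 and 44062 normalised counts in PVR and 12092, 11132 and 12448 in Normal. PVR replicate 3, with the lowest PVR sum, had the most Rpe65 of the PVR libraries. PVR replicate 2, with the highest sum, had close to the Rpe65 level of PVR replicate 1 (28578 and 28403). Each of these libraries was the lowest PVR library for 5 of the 10 genes. Lyz2, the most abundant of the 23 markers in PVR, had 32209, 53474 and 16984 normalised counts in PVR and 779, 377 and 251 in Normal. Of the 23, 21 were higher and 1 lower in PVR, the lower one being Csf1r (7392 ± 947 in PVR, 10038 ± 998 in Normal), which made up most of the Normal sum, and none was at 0 in all libraries. Fibroblast markers summed to 17709 to 26553 in PVR and 3508 to 7350 in Normal, with 7 of 10 higher. The part of these cells in the falls was not tested, and in bulk RNA fewer RPE cells and less transcript per RPE cell cannot be told apart.

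Of 14 other RPE markers tested, 4 were lower and 3 higher, with log2 changes from -2.02 to 1.14 and a median of 0.08. Cst3, the most abundant, had 147837 ± 20050 normalised counts in PVR and 124851 ± 9802 in Normal, Trpm3 had 40138 ± 2344 in PVR and 50740 ± 4959 in Normal, and neither passed the test. For Trpm3 limma gave an adjusted p of 0.0576 and edgeR 0.0655, but DESeq2 gave 0.0208. Enpp2, the gene of the secreted lysophospholipase autotaxin, fell (21271 ± 7336 in PVR, 83980 ± 14424 in Normal), the lowest log2 change of the list. The lactate transporter gene Slc16a8 fell (32116 ± 5229 in PVR, 45640 ± 5322 in Normal). The melanin enzyme gene Dct rose (30329 ± 3872 in PVR, 16674 ± 3165 in Normal). Most RPE markers were thus abundant, as the label has it, but the RPE channel gene Best1 was nearly absent from all 6 libraries (7.56 to 22.8 normalised counts in PVR, 10.3 to 13.6 in Normal). The claudin gene Cldn19 of the same list was too low to be tested. It had 1.03, 12.5 and 4.72 normalised counts in PVR and 0, 160.2 and 7.25 in Normal. Müller glia share Rlbp1 and Rgr with the RPE. Their markers Aqp4 (4.12 to 29.6 in PVR, 0 to 95.4 in Normal) and Kcnj10 (6.18 to 23.9 in PVR, 5.56 to 9.28 in Normal) were near the floor of detection, while Glul was abundant in PVR (32299 ± 1332) and Normal (34332 ± 2975) and is not confined to glia. Of the 6 Müller markers tested, Dkk3 was higher (7595 ± 898 in PVR, 1771 ± 1598 in Normal) and Car14 lower (13199 ± 2094 in PVR, 20117 ± 1270.5 in Normal). Dkk3 passed in limma (adjusted p = 0.0382) and DESeq2 (0.0214) but not in edgeR (0.0814). Its Normal libraries spread widely (633, 3597 and 1082). Over all 9 Müller markers, of which Glul held the most, summed levels were 53831 to 61664 in PVR and 55430 to 65249 in Normal. Rod markers summed to 2487 to 3329 in PVR and 4432 to 5407 in Normal, most of it Rom1 (2063 ± 503 in PVR, 4118 ± 490 in Normal). Of 10 tested, 2 were lower, Rom1 and Cngb1 (219 ± 60.9 in PVR, 441 ± 30.9 in Normal), and 0 higher. Yet the median log2 change of the 10 was 0.96, so the lower sum reflects Rom1 and not the list as a whole. Of the cone markers, 2 of 5 tested were higher and 1 lower (summed 1778 to 2068 in PVR, 792 to 869.6 in Normal). Most of the PVR sum was Gnb3 (1275 ± 173 in PVR, 38.3 ± 8.04 in Normal), and the lower gene was Pde6c (68.6 ± 22.0 in PVR, 353.8 ± 9.18 in Normal). Endothelial markers summed to 880.2 to 1437 in PVR and 322 to 1010.4 in Normal (0 of 8 called), and Schwann and melanocyte markers to 4278 to 5097 in PVR and 5384 to 6032 in Normal (1 of 5 higher, 2 lower).

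The rest of the retinoid pathway was read from a list of 30 genes, of which 29 were in the tables and 23 were tested: 6 were lower, 3 higher and 14 did not pass, with a median log2 change of 0.14. Among those that fell was Abca4, a retinoid-lipid flippase known from photoreceptor discs and also found in RPE, with 12233 ± 1712 in PVR and 18167 ± 2107 in Normal. The retinol saturase gene Retsat fell to 680 ± 115 in PVR, against 1430.1 ± 111 in Normal, although 650 of its 3537 exon bases are shared with an antisense gene. The carotenoid and lipoprotein receptor gene Scarb1 fell to 1641 ± 343 in PVR, against 3539 ± 492 in Normal, a log2 change of -1.12 that is close to that of the visual cycle genes. The mitochondrial carotenoid-cleaving enzyme gene Bco2 (150 ± 21.8 in PVR, 242 ± 6.81 in Normal) and the dehydrogenase gene Rdh14 (331 ± 27.9 in PVR, 456 ± 47.4 in Normal) fell too. Rdh14 did not pass when Normal replicate 1 (limma adjusted p = 0.102) or 2 (0.0523) or PVR replicate 2 (0.0769) was left out.

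The 3 genes that rose take up or release lipid or retinol. Stra6l, which encodes a receptor for the plasma retinol-binding protein related to Stra6 and known from mouse liver and gut, had 213, 133 and 115 reads in PVR and 1, 0 and 0 reads in Normal. Scaled by the size factors, the PVR libraries held 499.9 times as many reads (exact 95% interval 89.3 to 19788, counting error only), and limma gave an adjusted p of 3.05e-05 for Stra6l. Its fitted log2 change was 6.93 with a pseudocount of 1, 3.99 with one of 10 and 8.87 in DESeq2, since the Normal libraries hold next to no reads. The direction is opposite to that of Stra6. Cd36, a scavenger receptor for fatty acids and lipoproteins that macrophages also express, had 660.0, 1810 and 742 normalised counts in PVR and 93.8, 43.5 and 35.3 in Normal. The lipoprotein lipase gene Lpl, another macrophage product, had 315, 958 and 216 in PVR and 30.9, 88.0 and 18.1 in Normal (limma adjusted p = 0.0265), and lost its call without Normal replicate 1 (0.0716) or 3 (0.0741) or PVR replicate 1 (0.0741). Cd36 and Lpl were highest in PVR replicate 2, the library with the highest macrophage marker sum, and Stra6l in PVR replicate 1, and the part of macrophages was not tested. Among abundant genes that did not pass were the desaturase gene Degs1 (11930 ± 728 in PVR, 10315 ± 1311 in Normal), the retinal reductase gene Dhrs3 (1889 ± 295 in PVR, 2199 ± 89.2 in Normal), the endocytic receptor gene Lrp2 (7073 ± 372 in PVR, 7860 ± 667 in Normal) and the lipase gene Pnpla2 (1090 ± 21.4 in PVR, 899 ± 77.5 in Normal).

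**Figure D5:**
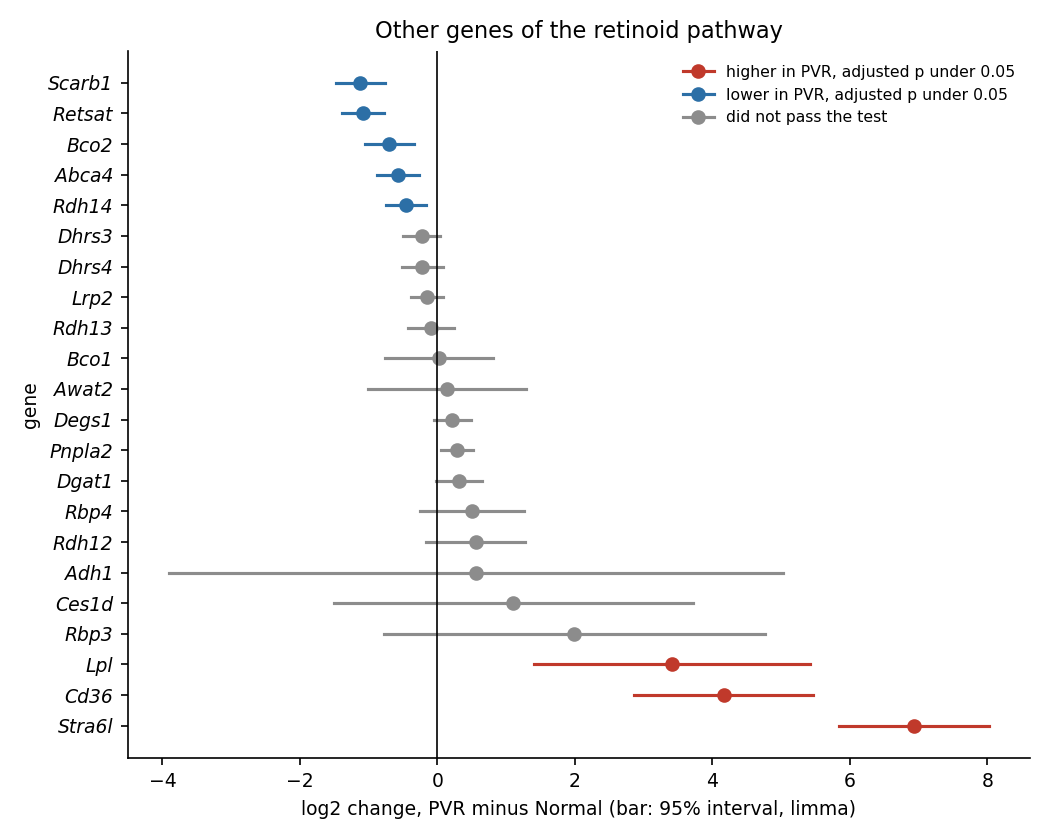
Log2 change (PVR minus Normal) with 95% interval from limma for other retinoid pathway genes that could be tested. Coloured points passed the test, Scarb1 being lowest at -1.12 and Stra6l highest, at a value that depends on the pseudocount.

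Of 8 tested transcription factor genes known to drive RPE and visual cycle genes, 2 were lower and 1 higher. Over all genes tested, 12.9% were lower and 17.9% higher, and 8 genes are too few to set apart from these shares. Otx2, an activator of RPE genes, had 9043, 10273 and 10996 normalised counts in PVR and 17130, 15482 and 15857 in Normal (log2 change -0.68, SE 0.11, limma adjusted p = 0.0017). Lhx2, an eye-field factor kept in the RPE, had 1705, 1618 and 1765 in PVR and 2289, 2362 and 2512 in Normal (log2 change -0.49, limma adjusted p = 0.0038). Sox9, which acts with these factors, was not called (10667, 6316 and 6778 in PVR, 8457, 4296 and 7454 in Normal), nor was Mitf (2255 ± 49.8 in PVR, 2424 ± 176 in Normal). Tfec, a relative of Mitf that macrophages also express, had 78.3, 63.8 and 15.1 in PVR and 5.15, 14.8 and 5.44 in Normal. It was called higher (limma adjusted p = 0.0248) but did not pass when any of 4 libraries was left out: Normal replicate 1 (0.0943), Normal replicate 3 (0.0879), PVR replicate 1 (0.0883) and PVR replicate 2 (0.0897).

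Over the 6 libraries, the genes outside the group whose log2 values most closely followed the mean profile of the 9 lower genes were Atrnl1, Polr1b, Osbp2, Itpr1 and AI597479, with Pearson coefficients of 0.998 to 0.999. These are descriptions over 6 libraries that fall into 2 groups, so the coefficients largely restate the difference between groups. Atrnl1 had 4744 ± 983 normalised counts in PVR and 12068 ± 1172 in Normal, Osbp2 3531 ± 695 in PVR and 8241 ± 607 in Normal, and Itpr1 4801 ± 643 in PVR and 9426 ± 839 in Normal. Polr1b (309 ± 6.82 in PVR, 352 ± 3.23 in Normal) followed the profile at a far smaller amplitude and did not pass the test.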

How the data were processed

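PolyA RNA was sequenced in 6 libraries, grouped by their titles; per the labels, TRIzol was used on primary RPE cells. The authors deposited a signal for each gene that is its read count divided by 1 size factor per library, as the values show (100% gave whole reads within 0.001 reads, and the factors equal median-ratio factors). Per the submitters' processing notes, mm10 and DESeq2 were used, with no role stated. No source used here names the aligner, the counter, its strand setting or the annotation. Within a group no libraries were duplicates (chi-square per gene at least 19.9).

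The test was limma 3.58.1 (R 4.3.3, trend and robust) on log2(normalised count + 1), over the 15766 genes passing filterByExpr of edgeR 4.0.16 (minimum count 10) on the recovered reads, with adjustment over all of them and a threshold of 0.05. edgeR and DESeq2 1.42.0 on the recovered reads were alternatives. All were also run on simulated counts with few changed genes, balanced directions and no pairing. These data differ from those settings at least in the number and balance of changed genes, so the simulation does not show how the tests perform here. The ratio test used the same fit on log2 values minus those of Rpe65. Deviations from the group means correlated between same-numbered libraries (0.206, 0.195 and 0.179, others -0.137 to -0.0689). Such deviations cancel within a group, so the negative values are not separate evidence, and the correlations were not tested. The numbers may thus pair the libraries, and a fit with this block was run beside the main one. Positions and exon lengths are from GENCODE M21 (GRCm38, which is mm10), whose symbols match 27362 of 28043 names. Promoters are RefSeq's (GRCm38.p6), with 8 of the genes used here. Levels per kb of the longest coding transcript were added after seeing the data.

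The members and lists were chosen with earlier results of these data known. All members were named, and of the pathway, opsin and regulator lists each gene that passed or averaged at least 1000 normalised counts in a group. A gene of these lists that the rule names is not reported here. Of marker lists, genes among the 3 most abundant were named. Slc16a8, Dct, Best1, Cldn19, Aqp4, Kcnj10 and Bloc1s1, and the choice among those 3, were added after values were seen. The 5 genes most alike were taken by Pearson coefficient.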

Additional observations from a re-analysis of the deposited data

How the results depend on the processing

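Across 18 alternatives (TMM or library-total scaling, pseudocounts of 0.5 and 10, no filter or one at 1 CPM, edgeR, DESeq2, a minimum change of 1.5-fold, the replicate block, each library left out, replicates 1 and 2 only, and Normal replicate 2 with PVR replicate 3 left out), every member kept its direction, with 170 results on the same side of the threshold and 10 no longer past it. Against a minimum change of 1.5-fold, 2 of the 10 genes (Rpe65 and Rrh) were lower, 2 other pathway genes were lower, 2 genes were higher relative to Rpe65, and 1232 genes of all were higher and 249 lower. This test asks for a larger change by construction. The log2 change of Rpe65 ranged from -1.64 to -1.39 and that of Ttr from 0.13 to 0.24, and Ttr was called under none of the 18.

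Leaving out each library in turn gave 8 to 9 lower and 0 higher of the 10 genes, 6 to 9 higher and 0 lower relative to Rpe65, 5 to 6 lower and 2 to 6 higher of the other pathway genes (5 higher without Normal replicate 1 and 6 without Normal replicate 2), and 1307 to 2026 lower (1307 without Normal replicate 1) and 2193 to 2844 higher of all genes. The log2 change of Sox9, which was not called, ran from -0.0440 (without Normal replicate 2) to 0.444 (without Normal replicate 1); the cause was not tested. With the replicate block 9 of the 10 genes were lower and 7 were higher relative to Rpe65, Rlbp1 (limma adjusted p = 0.0536) and Rrh (0.0839) losing that call. Among the 10 genes and the named pathway and regulator genes no other call changed with the block. Marker genes were not looked up under it. Lpl lost its call with no filter (adjusted p = 0.0808). Library-total scaling moved all log2 changes by a median of -0.07 and gave 2539 higher and 2464 lower genes, against 2825 and 2033.

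Depth does not limit the 10 genes, which have over 1000 reads in each library, but it does limit Stra6l, Tfec and the low markers. No molecular identifiers are stated, so reads are not counted molecules and the interval of Stra6l covers counting error alone.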
